A study of Mus musculus with 4 samples.

Results

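Gamma-delta T cells of aged gonadal fat were examined in single-cell RNA sequencing of the adipose stromal vascular fraction. A cell counted as a gamma-delta T cell when it held at least 2 UMIs of Trdc, the constant gene of the T cell receptor delta chain, and at least 1 UMI of Cd3e or Cd3g, subunits of the CD3 signalling complex. A UMI, or unique molecular identifier, counts 1 transcript molecule of a cell. Cells with any UMI of Cd8b1, Ncr1 or Csf1r, over 1 UMI of Pdgfra or Cd79a, or 10 or more UMIs of Mzb1 were left out. By this rule, 398 of 14982 kept cells were gamma-delta T cells. Because measured values chose them, the levels of these 9 genes are descriptions and not findings.

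All animals were 18-month-old male mice of the genotype p16-CreERT2/R26-LSL-tdTomato. In these mice tamoxifen turns on the red protein tdTomato, permanently, in cells whose p16 (Cdkn2a) promoter was active at the time of dosing, so a Tom+ cell is one that had an active promoter then and need not have it at sampling. Every group had received tamoxifen, and all cells came from gonadal adipose tissue digested without its mature adipocytes. Flow cytometry for the leukocyte surface protein CD45 and for tdTomato gave 4 groups. Below, values are given in a fixed order of the labels, first CD45- Tom+ and CD45- Tom-, then CD45+ Tom+ followed by CD45+ Tom-. Each group was 1 library, and the number of mice behind each was not given in the sources used here. There was no replicate, so no test between groups was possible, each comparison is between libraries rather than conditions, and all intervals are 95% intervals that cover counting error only.

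Gamma-delta T cells carry a T cell receptor made of a gamma and a delta chain in place of the alpha and beta chains of conventional T cells. Many of them settle in tissues early in life and stay there, and in the mouse they fall into a type 17 subset, which makes interleukin 17, and a type 1 subset, which makes interferon gamma and cytotoxic proteins. In fat, interleukin 17-making gamma-delta T cells are known as a resident population that acts on stromal cells, regulatory T cells and heat production.

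The libraries held 64083756 to 139397501 UMIs in 3429 to 11255 barcodes, of which 4145, 4038, 1981 and 4818 cells were kept. A kept cell had between 1000 and 7000 genes, and its mitochondrial UMIs were under 8%. The tdTomato label matched its transcript, with a tdTomato UMI in 93.2, 22.6, 91.3 and 26.4% of kept cells. The CD45 label did not separate cells by the transcript of Ptprc, which encodes CD45, since 80.8, 50.2, 79.2 and 53.5% of kept cells held a Ptprc UMI, and gamma-delta T cells were present in both libraries labelled CD45-. The CD45 label is therefore used only as the name of a library pair, the CD45- pair and the CD45+ pair. Pairs of libraries shared 26 to 4394 barcode sequences among all deposited and 1 to 21 among kept cells, and no barcode was a gamma-delta T cell in more than 1 library.

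The genes of interleukin 17A, interleukin 17F and the interleukin 23 receptor, type 17 genes, are shown by sequence, because AGGTCA is a 6-base core that many nuclear receptors bind. Il17a and Il23r ranked high over alpha-beta T cells as given below, while Il17f was sparse. The windows are the 250 bases before the RefSeq start of each gene in GRCm38.p6, read 5′ to 3′ on the strand of the gene, and capitals mark AGGTCA or its reverse complement TGACCT. Il17a lies on the plus strand at chr1:20730655-20730904, Il17f on the minus strand at chr1:20784271-20784520 and Il23r on the minus strand at chr6:67491856-67492105.
Il17a: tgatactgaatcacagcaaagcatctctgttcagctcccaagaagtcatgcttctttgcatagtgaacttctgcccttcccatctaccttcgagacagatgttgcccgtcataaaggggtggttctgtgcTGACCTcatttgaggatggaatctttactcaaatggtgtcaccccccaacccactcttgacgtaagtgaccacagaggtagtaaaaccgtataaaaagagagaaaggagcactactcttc
Il17f: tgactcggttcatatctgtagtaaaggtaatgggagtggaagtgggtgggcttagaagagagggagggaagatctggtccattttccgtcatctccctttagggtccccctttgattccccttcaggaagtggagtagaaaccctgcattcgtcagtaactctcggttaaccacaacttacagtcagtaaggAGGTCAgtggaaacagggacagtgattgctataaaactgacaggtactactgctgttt
Il23r: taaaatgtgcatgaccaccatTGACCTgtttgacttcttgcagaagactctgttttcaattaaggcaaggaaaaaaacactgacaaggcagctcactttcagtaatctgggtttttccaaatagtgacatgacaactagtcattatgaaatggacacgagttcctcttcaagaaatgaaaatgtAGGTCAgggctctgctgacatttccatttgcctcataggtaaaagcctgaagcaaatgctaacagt
The core stood at bases -120 to -115 of Il17a, at -58 to -53 of Il17f, and at -229 to -224 and -66 to -61 of Il23r, counted back from the start site. The letters, on either strand, were found in a window of this length for 15.8% of all genes (4260 of 27025). Of the 17 type 17 genes with a window, 5 held it, namely Actn2, Ccr6, Il17a, Il17f and Il23r. A match is a description of these letters only and says nothing of binding in these cells.

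Gamma-delta T cells made up a larger share of both Tom+ libraries. They were 207 of 4145 kept cells in the library labelled CD45- Tom+ (4.99%, interval 4.35 to 5.70), 42 of 4038 in CD45- Tom- (1.04%, 0.751 to 1.40), 82 of 1981 in CD45+ Tom+ (4.14%, 3.31 to 5.11) and 67 of 4818 in CD45+ Tom- (1.39%, 1.08 to 1.76). The Tom+ share was 4.80 times that of Tom- in the first pair and 2.98 times in the second, and the intervals did not overlap within either pair. Among kept cells with a Cd3e or Cd3g UMI, under the same limits except that on Cd8b1, gamma-delta T cells were 58.0% (52.7 to 63.2), 18.1% (13.4 to 23.7), 56.9% (48.4 to 65.2) and 18.6% (14.7 to 23.0). With this denominator the ratios were 3.20 and 3.07, so the difference was also seen within the T cells of each pair. The order turned when gamma-delta T cells with over 50 UMIs of plasma cell markers, or over 5 of macrophage or stromal markers, were left out, since 0, 0.966, 0.0505 and 1.12% of kept cells then remained. Plasma cell transcripts were high in the alpha-beta T cells of both Tom+ libraries too.

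Alpha-beta T cells were counted in the same libraries as kept cells with no Trdc UMI, a Cd3e or Cd3g UMI and at least 2 UMIs of Trac, Trbc1 or Trbc2, under the same limits except that on Cd8b1. They numbered 112, 167, 43 and 260. For every 100 alpha-beta T cells there were 185 gamma-delta T cells in CD45- Tom+, 25.1 in CD45- Tom-, 191 in CD45+ Tom+ and 25.8 in CD45+ Tom-. There were thus more gamma-delta than alpha-beta T cells in both Tom+ libraries and fewer in both Tom- libraries. The sort itself set how many cells of each kind entered a library, so these shares describe the sorted fractions and not the tissue.

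**Figure D1:**
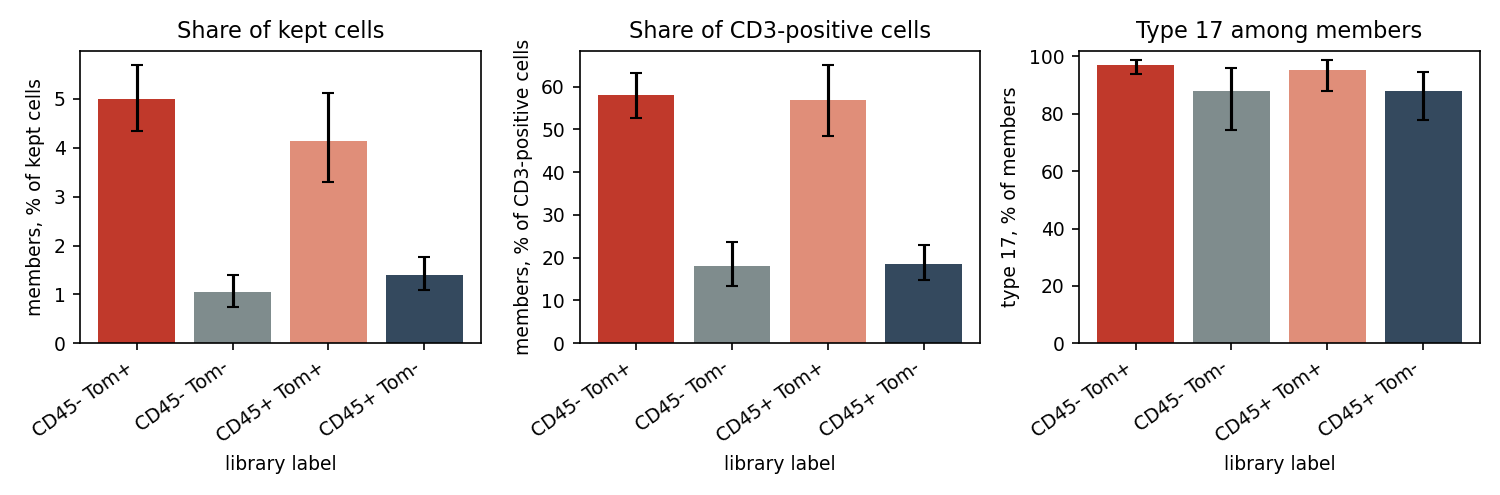
Bars give the share of gamma-delta T cells among kept cells (left, percent), their share among cells with a Cd3e or Cd3g UMI (middle, percent) and the share of type 17 cells among gamma-delta T cells (right, percent) in each of the 4 libraries, with exact 95% binomial intervals of counting error. Both Tom+ libraries stand at 4.14% or more of kept cells against 1.39% or less in Tom-, while type 17 cells are 88.1% or more of the gamma-delta T cells in every library.

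The reporter transcript in these cells followed the sort. tdTomato measured 1137, 50.5, 1130 and 80.3 CPM, the UMIs of a gene per 1000000 UMIs summed over the gamma-delta T cells of a library. A tdTomato UMI was seen in 98.6, 21.4, 93.9 and 40.3% of them. The gene it reports on was sparse. Cdkn2a, which encodes the cell cycle inhibitor p16 and the Arf protein, gave 20, 2, 4 and 4 UMIs, or 12.5, 6.31, 6.98 and 6.98 CPM, and the log2 ratio of Tom+ over Tom- was 0.99 (-1.05 to 4.13) in the CD45- pair and 0.00 (-2.43 to 2.42) in the CD45+ pair. A difference in Cdkn2a was not detectable at this depth.

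The label gamma-delta T cell was checked against genes the rule did not use. Tcrg-C1, a constant gene of the gamma chain (chr13:19214103-19217024, mm10, plus strand), measured 623, 552, 581 and 618 CPM, and 93.2, 85.7, 91.5 and 89.6% of cells held a UMI. In alpha-beta T cells it measured 10.2 to 18.0 CPM. Reads of Tcrg-C1 may be split with the near-identical Tcrg-C2 and related copies, so their levels are uncertain relative to one another. Of the defining genes of other T cells, Cd4 gave 1 UMI, Cd8a 2 UMIs and Foxp3 0 UMIs over all 398 cells. The rule's limit on Cd8b1 leaves out CD8 T cells, so the low Cd8a follows in part from that choice. No levels of these genes in alpha-beta T cells are set beside them, so the counts do not separate absence from poor capture.

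Transcripts of the alpha and beta constant genes were present at different levels. Trac, the alpha constant gene, measured 41.4, 50.5, 43.6 and 76.8 CPM in gamma-delta T cells against 419, 492, 503 and 524 CPM in alpha-beta T cells. Trbc2, a beta constant gene, measured 608, 521, 636 and 702 CPM against 913, 1060, 1081 and 1040 CPM. The alpha-beta T cells were chosen by these genes, so their levels are raised by that choice and the comparison is a description only.

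Transcripts of other cell types were present in the libraries to different degrees. The summed level of 4 plasma cell markers in gamma-delta T cells was 40312, 2231, 32166 and 1705 CPM, and in alpha-beta T cells of the same libraries 39410, 2575, 30702 and 2056 CPM. Immunoglobulin genes took 6.26, 0.396, 4.78 and 0.287% of the UMIs of gamma-delta T cells, and so were higher in both Tom+ libraries. Macrophage markers, 6 genes with the rule's Csf1r at 0, summed to 650, 297, 516 and 290 CPM, and 4 stromal markers to 105, 350.3, 112 and 349 CPM. The 4 NK cell markers summed to 8.78, 82.1, 15.7 and 34.9 CPM, with Ncr1 at 0 by the rule. The 4 endothelial markers summed to 175, 41.0, 68.0 and 192 CPM. In CD45- Tom+ 1 cell held 51.3% of these endothelial UMIs, and in CD45+ Tom- 1 cell held 77.3%. The part of these transcripts in the ratios given below was not tested.

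Cells on either side of the Trdc limit differed in other receptor genes. The 16 cells with 1 Trdc UMI that met the other limits were not counted, and 37.5% of them held a Tcrg-C1 UMI, 12.5% a Trdv4 UMI, 25.0% a Cd163l1 UMI and 56.2% a Trac UMI. Of the 22 cells with 2 Trdc UMIs, just inside, 50.0% held Tcrg-C1, 40.9% Trdv4, 63.6% Cd163l1 and 9.09% Trac. Of the 376 cells with 3 or more, these were 93.9, 86.7, 92.6 and 27.9%. The 3 groups differed in depth, with medians of 5519.5, 2768.5 and 7636 UMIs per cell.

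The receptor of these cells was dominated by 1 delta segment. Trdv4 (chr14:54074905-54075515, mm10, plus strand), the segment of the mouse V delta 1 chain, measured 470, 559, 626 and 696 CPM, and a UMI was seen in 86.0, 83.3, 82.9 and 80.6% of cells. Of the 345 cells with a UMI of any delta variable gene, Trdv4 led in 97.1% (94.7 to 98.6). In alpha-beta T cells Trdv4 stood at 1.03 CPM or less in every library. The 4 libraries were alike in this, Trdv4 being past 2-fold in neither pair.

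Gamma variable genes were captured less often. The assay reads the 3′ end of a transcript, and variable segments lie toward its 5′ end. Of the 244 cells with any gamma variable UMI, Tcrg-V6, the partner of V delta 1 in a fetal-derived subset, led in 41.4% and Trgv2 in 38.5%, while Tcrg-V1 and Tcrg-V4 each led in 2.46%. Tcrg-V6 (chr13:19190356-19190929) measured 72.7, 50.5, 61.0 and 68.1 CPM, with a UMI in 39.1, 26.2, 28.0 and 38.8% of cells, and was at 1.03 CPM or less in alpha-beta T cells. Trgv2 measured 72.1, 63.1, 82.0 and 69.8 CPM, and 15.8 to 36.1 CPM in alpha-beta T cells, so alpha-beta T cells held some of it too. The intervals of the 4 libraries overlapped for both genes.

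Signalling genes downstream of the receptor were expressed with 1 exception. Zap70, a receptor kinase, measured 162, 253, 169 and 169 CPM, and Lat, the adaptor it phosphorylates, 313, 376, 293 and 360 CPM. Both were higher than in alpha-beta T cells of every library, where they measured 72.3 to 107 and 193 to 292 CPM. Lck, the kinase that starts receptor signalling in most T cells, measured only 8.15, 31.6, 10.5 and 24.4 CPM against 199, 231, 167 and 240 CPM in alpha-beta T cells. Blk, a related kinase of B cells and interleukin 17-making gamma-delta T cells, had the opposite pattern with 326, 442, 321 and 417 CPM against 3.08 to 12.4 CPM. Of the 13 receptor and CD3 genes that averaged 50 CPM or more, 0 were 2-fold apart between Tom+ and Tom- in either pair, with median log2 ratios of -0.25 and -0.12.

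Most of the cells were of type 17. A cell was put in this subset when its UMIs summed over 8 type 17 genes (among them Il17a, Il17f, Il23r, Cd163l1, Blk, Il1r1 and Ccr6) exceeded those over 12 type 1 genes (Tbx21, Eomes, Ifng, Ccl5, Nkg7, Klrd1, Xcl1, Gzma, Gzmb, Klre1, Cd160, Cxcr3), and in the type 1 subset when they were fewer. By this split 375 of 398 cells (94.2%) were type 17, 19 were type 1 and 4 neither, and in 6 cells the sums differed by 1 UMI. Type 17 cells were 97.1% (93.8 to 98.9), 88.1% (74.4 to 96.0), 95.1% (88.0 to 98.7) and 88.1% (77.8 to 94.7) of the 4 libraries. The type 1 cells numbered 4, 4, 3 and 8. The type 17 share was higher in Tom+ in both pairs, but the intervals overlapped in each.

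**Figure D2:**
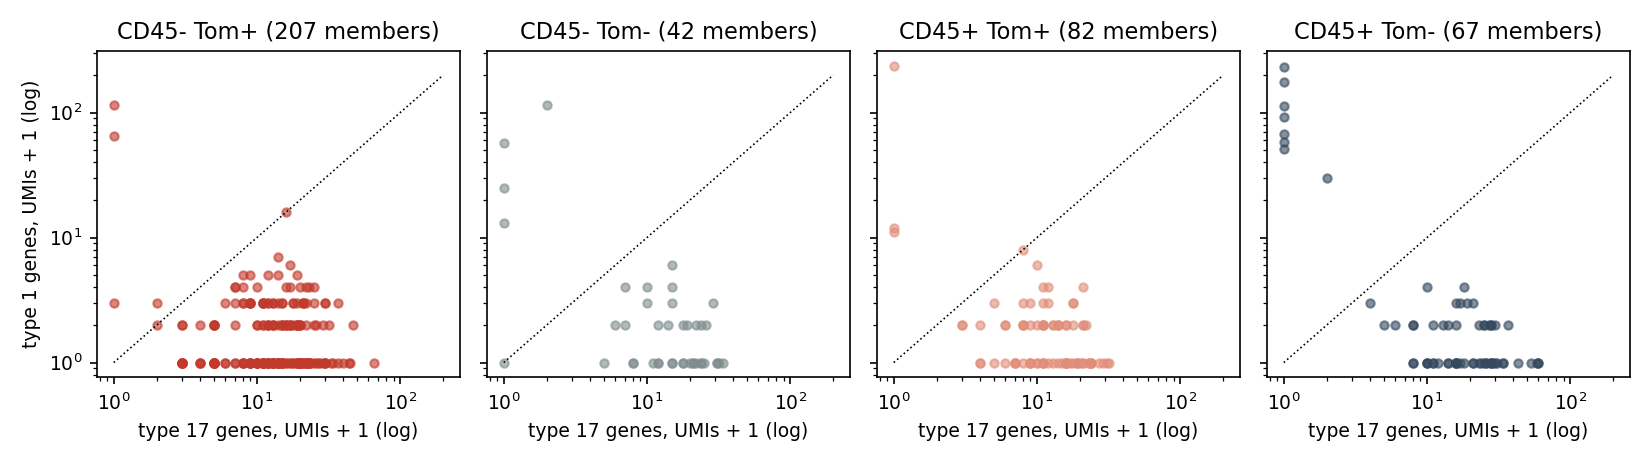
Each point is 1 gamma-delta T cell, placed by its UMIs plus 1 summed over 8 type 17 genes (x axis, log scale) and over 12 type 1 genes (y axis, log scale), 1 panel per library, with a dotted line where both sums are equal. Most cells of every library lie below the line, and the 19 type 1 cells lie above it.

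The subsets differed in genes that the split had not used. Trdv4 was seen in 331 of 375 type 17 cells (88.3%, 84.6 to 91.3) and in 1 of 19 type 1 cells (5.26%, 0.133 to 26.0). Tcrg-C1 was seen in 95.2% of type 17 and 21.1% of type 1 cells, whereas Tcrg-C2 was seen in 34.1 and 57.9%. Tcrg-V6 was seen in 37.3% of type 17 cells and in 0 of 19 type 1 cells, which allows a share of up to 17.6%. Most type 17 cells thus shared a delta segment, Trdv4, that the type 1 cells mostly lacked. Whole receptors were not read. The type 1 cells came from all 4 libraries and are few, and Trdc itself was at 2101 CPM in type 17 and 756 CPM in type 1 cells.

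Further genes outside the split were higher in the type 17 cells. Cxcr6, a receptor of tissue-resident lymphocytes, measured 644 CPM in type 17 and 25.8 CPM in type 1 cells. Tmem176a, a membrane channel gene, measured 1422 and 77.3 CPM, and Maf, a transcription factor that type 17 gamma-delta T cells need, 618 and 43.0 CPM. Actn2 measured 323 and 8.59 CPM, Ckb, the brain creatine kinase, 461 and 34.4 CPM, Ltb4r1, a leukotriene B4 receptor, 272 and 25.8 CPM, and Igf1r 342 and 34.4 CPM. These were among the 15 genes with the highest ratio of type 17 over type 1.

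In the other direction, several receptor and signalling genes were higher in the type 1 cells. Lck measured 2.76 CPM in type 17 and 292 CPM in type 1 cells, so that its low level over all cells was that of the type 17 subset. Cd27, a co-stimulatory receptor, measured 3.44 and 309 CPM, and Cd28 6.89 and 318 CPM. Fasl, a death ligand, measured 0.689 and 137 CPM. Klra7, an NK cell receptor gene, gave 0 UMIs in type 17 cells and 275 CPM in type 1 cells. The type 17 subset, 94.2% of all cells, thus had high Trdv4 and little Cd27 or Lck.

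Of the 17 type 17 genes that averaged 50 CPM or more over gamma-delta and alpha-beta T cells, 14 were 2-fold or more higher in gamma-delta T cells in each of the 4 libraries and 0 were lower, where 4.04% of 2871 genes were higher and 2.23% lower. The list holds 23 genes, and Il22 and Ccr6 were among those too low to compare. Cd163l1, a scavenger receptor (chr7:140218267-140231145, mm10, plus strand), measured 800, 811, 670 and 944 CPM against 16.9, 3.73, 9.85 and 4.10 CPM in alpha-beta T cells. Sox13, a transcription factor of this lineage, measured 108, 114, 94.2 and 115 CPM against 0.513 to 6.57 CPM. Kcnk1, a potassium channel, measured 125, 158, 164 and 161 CPM against 5.59 to 13.1 CPM. The rule that ranks genes by their smallest ratio over alpha-beta T cells across the 4 libraries named Trdc, Trdv4, Cd163l1, Tcrg-C1, Blk, Il17a, Kcnk1, Ly6g5b, Actn2, Sox13, Ckb, Pde5a, Il1r1, Il23r and Krt83.

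**Figure D3:**
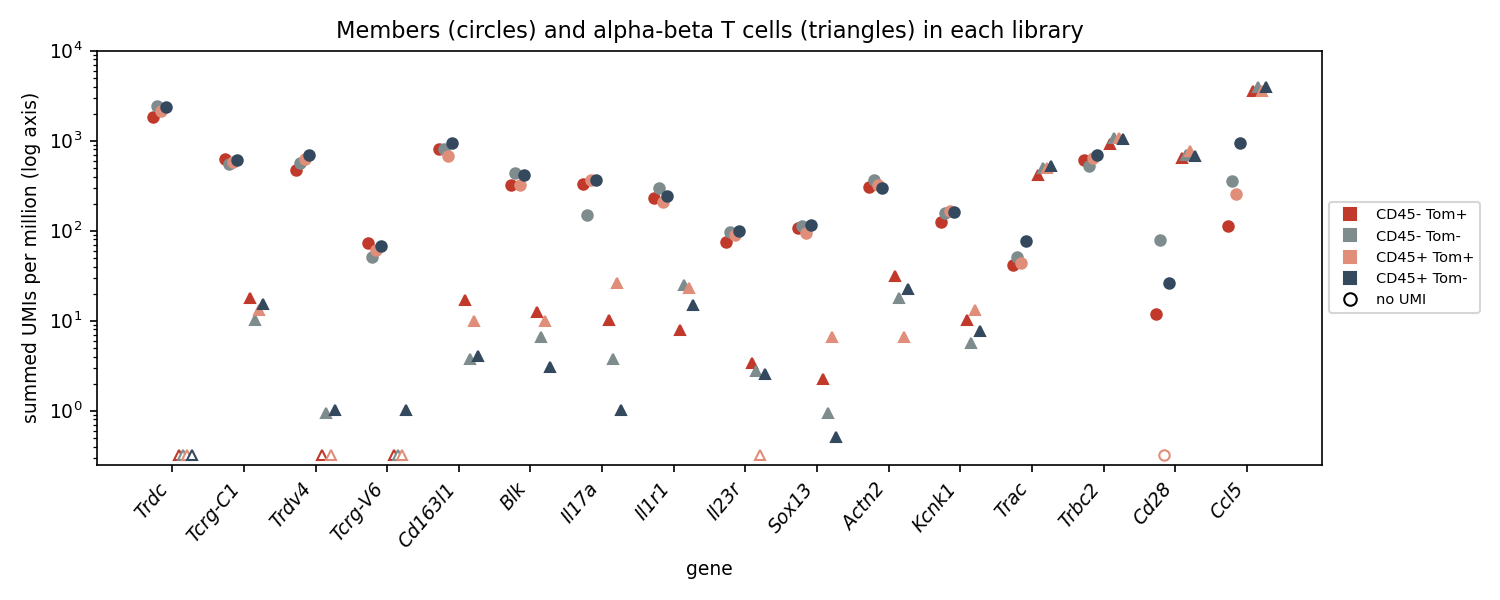
CPM (log axis) of 16 genes in gamma-delta T cells (circles) and alpha-beta T cells (triangles) of each of the 4 libraries, with hollow symbols at the bottom for genes without a UMI. Cd163l1 stands at 670 CPM or more in gamma-delta T cells and at 16.9 CPM or less in alpha-beta T cells, while Trac, Cd28 and Ccl5 are higher in alpha-beta T cells.

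Rora, Maf and Zbtb16, transcription factors of the type 17 programme, were present at similar levels in the 4 libraries. Rora, a nuclear receptor, measured 1235, 1019, 1348 and 997 CPM, and stood above Tom- in Tom+ by log2 ratios of 0.28 (0.11 to 0.45) and 0.44 (0.28 to 0.59). Maf measured 564, 650, 539 and 688 CPM and Zbtb16, which encodes the innate T cell factor PLZF, 140, 97.8, 152 and 124 CPM. None of these 3 was 2-fold apart in either pair.

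For Tom+ against Tom-, genes were compared if they averaged 50 CPM or more over the libraries of a pair, and a gene counts as called when the libraries were 2-fold or more apart. In the CD45- pair, 2.34% of 2906 genes were higher in Tom+ and 2.13% lower, with a median log2 ratio of -0.07. In the CD45+ pair, 1.05% of 2939 genes were higher and 2.14% lower, with a median of -0.06. In both pairs, 19 of 2686 genes (0.707%) were higher and 19 (0.707%) lower. These shares are the background against which the counts for each list are given.

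Of the 19 type 17 genes compared, 1 was called higher in Tom+ in the CD45- pair and 0 in the CD45+ pair, with none lower and medians of -0.20 and -0.02. The 1 gene was Il17a (chr1:20730905-20734496, mm10, plus strand), the cytokine that gives the subset its name. It measured 332, 152, 368 and 370.0 CPM. CD45- Tom- was the low library, and the other libraries lay close together. The log2 ratio was 1.13 (0.71 to 1.59) in the CD45- pair and -0.01 (-0.29 to 0.27) in the CD45+ pair. Without the cells high in cell cycle genes described below, the first was 0.99. The second was not recomputed without them. In CD45+ Tom- 1 such cell held 31 of the 212 Il17a UMIs and another held 14. The 2 such cells of CD45+ Tom+ held 1 and 0 of 211.

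Il17a was seen in 48.8, 23.8, 46.3 and 32.8% of cells, and in 28.5, 14.3, 31.7 and 23.9% after each cell was thinned to 2000 UMIs. Alpha-beta T cells of the same libraries held a UMI in 4.46, 1.20, 2.33 and 0.769%, with medians of 7307.5, 5691, 5619 and 6514.5 UMIs per cell against 7782, 7179, 7275 and 7659 in gamma-delta T cells, so these shares lay above that background. By the share of cells, both Tom+ libraries were above their Tom- partner, while by CPM only the CD45- pair differed. These shares are given without intervals. Those of the CD45+ pair rest on 82 and 67 cells, so their gap may lie within counting error. The transcripts were unevenly spread, since the 21, 5, 9 and 7 cells with the most held 62.3, 87.5, 60.7 and 69.3% of the Il17a UMIs, and in CD45- Tom- 1 cell held 33.3%.

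Cells with and without an Il17a UMI were also set side by side, as a description, since they were chosen by that UMI. In the 2 Tom+ libraries together 139 cells had one and 150 did not, and in the 2 Tom- libraries 32 had one and 77 did not. Il17f, the sister cytokine, measured 22.7 CPM with and 3.75 CPM without Il17a in Tom+, and 67.4 and 3.37 CPM in Tom-. Il23r had an interval of the ratio that included 0 in both.

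Other cytokines of the subset were sparse. Il17f measured 13.2, 37.9, 14.0 and 17.5 CPM, and Il22, an epithelial repair cytokine, gave 6 UMIs in all. Ifng measured 5.64, 6.31, 1.74 and 14.0 CPM, against 72.3 to 103 CPM in alpha-beta T cells. Tnf measured 45.8, 44.2, 62.8 and 62.8 CPM, above its 4.66 to 19.5 CPM in alpha-beta T cells. Ltb, which encodes lymphotoxin beta, was the most abundant of them, at 495, 650, 589 and 532 CPM, and was 2-fold apart in neither pair.

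Tnfsf11 (chr14:78277445-78308043, mm10, minus strand), which encodes the cytokine RANKL, was lower in both Tom+ libraries. It measured 110.4, 322, 146 and 265 CPM. Both Tom- libraries lay above both Tom+ libraries, and the intervals of counting error did not overlap. The log2 ratios were -1.54 (-1.90 to -1.18) and -0.86 (-1.26 to -0.46), so the gene was called in the CD45- pair only. A UMI was seen in 30.9, 64.3, 41.5 and 55.2% of cells, and after thinning in 16.9, 38.1, 23.2 and 29.9%. Alpha-beta T cells had 16.9, 28.9, 26.3 and 44.6 CPM. Of the 4 and 5 cytokine genes compared, no others than Tnfsf11 and Il17a were called.

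Lif, another secreted cytokine, was under the 50 CPM limit and so was not compared. It gave 16, 11, 2 and 18 UMIs, or 10.0, 34.7, 3.49 and 31.4 CPM, and was seen in 4.83, 16.7, 2.44 and 19.4% of cells. Both Tom+ libraries were again below both Tom- libraries.

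Receptors for the cytokines that drive interleukin 17 release were expressed throughout. Il23r measured 75.3, 97.8, 88.9 and 99.5 CPM and Il1r1, the interleukin 1 receptor, 229.5, 297, 209 and 241 CPM. Il7r, the receptor of the survival cytokine interleukin 7, was seen in 95.2, 90.5, 93.9 and 89.6% of cells at 826, 893, 835 and 771 CPM, and Il18r1 measured 318, 420, 333 and 380 CPM. Il2ra, the interleukin 2 receptor alpha chain, measured 161, 297, 219.7 and 312 CPM and had log2 ratios of -0.89 (-1.23 to -0.53) and -0.51 (-0.85 to -0.17). Of 15 and 13 cytokine receptor genes compared, 0 were called in either pair, with medians of -0.38 and -0.05.

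Of the 16 homing and residency genes compared with alpha-beta T cells, 3 were 2-fold or more higher in gamma-delta T cells in each library. Those were Ccr2, Cxcr6 and Itgb7, while 5 were lower in each, among them Ccr7, Klf2 and the integrin subunit Itga4. Over all 2871 genes compared in this way, 4.04% were higher and 2.23% lower. Cxcr6 measured 581, 663, 589 and 719 CPM against 46.0 to 84.8 CPM in alpha-beta T cells, and Itgb7, an integrin subunit, 462, 533, 539 and 456 CPM against 108 to 187 CPM. Ccr2, a chemokine receptor, measured 495, 625, 568 and 691 CPM, while Ccr6, often used to define type 17 cells, measured 8.15, 31.6, 10.5 and 5.24 CPM. The 4 libraries shared the high Cxcr6 and Itgb7, and Ccr6 was low in each.

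Of 12 and 11 homing genes compared, 1 was called, S1pr1 in the CD45- pair. S1pr1 is the receptor that lets lymphocytes leave tissue. It measured 117, 28.4, 97.7 and 83.8 CPM, with log2 ratios of 2.05 (1.09 to 3.20) and 0.22 (-0.36 to 0.81), and CD45- Tom-, with 9 UMIs, was the low library. Rgs1, a brake on chemokine signalling, measured 1000.3, 590.2, 1097 and 651 CPM, with log2 ratios of 0.76 (0.54 to 0.99) and 0.75 (0.57 to 0.94). It was higher in Tom+ in both pairs without being called, and lower in alpha-beta T cells, at 312 to 371 CPM. Itgae, the integrin chain CD103, gave 41, 1, 19 and 2 UMIs, or 25.7, 3.16, 33.1 and 3.49 CPM, under the limit for comparison.

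Itgb1, the integrin beta 1 chain that binds matrix proteins, was called higher in Tom+ in both pairs (chr8:128685654-128733200, mm10, plus strand). It measured 406, 170, 439 and 215 CPM. Both Tom+ libraries stood above both Tom- libraries, with log2 ratios of 1.25 (0.85 to 1.68) and 1.03 (0.72 to 1.36). A UMI was seen in 67.1, 54.8, 72.0 and 55.2% of cells, and after thinning in 39.1, 26.2, 51.2 and 20.9%. In alpha-beta T cells Itgb1 measured 338, 350.2, 269 and 343 CPM and was not higher in Tom+. In CD45+ Tom- 1 cell held 27.6% of its UMIs. The CD45- ratio was under 2-fold, at 0.36, when cells were thinned first, at 0.83 with equal weight per cell and at 0.96 when 1 Trdc UMI was enough.

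Among 7 checkpoint and co-stimulation genes compared in each pair, 1 was called, and it was Ctla4 in both (chr1:60887000-60915832, mm10, plus strand). Ctla4 encodes an inhibitory receptor of activated and regulatory T cells. It gave 131, 11, 61 and 12 UMIs, or 82.2, 34.7, 106 and 20.9 CPM, with log2 ratios of 1.24 (0.36 to 2.28) and 2.34 (1.44 to 3.37). Both Tom+ libraries were above both Tom- libraries, and 42.0, 14.3, 40.2 and 10.4% of cells held a UMI. After thinning, these shares were 16.4, 7.14, 8.54 and 1.49%, close to the level of 1 UMI, and in CD45- Tom- 1 cell held 36.4% of the UMIs. The CD45- ratio was 0.70 when cells were thinned before the rule and 0.99 when 1 Trdc UMI was enough, both under 2-fold.

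Alpha-beta T cells had more Ctla4, at 329, 320.4, 253 and 335 CPM, with no such gap between Tom+ and Tom-. Foxp3, the defining gene of regulatory T cells, was at 0 UMIs in gamma-delta T cells. The other checkpoint genes did not share the pattern, and the medians of the list were -0.12 and -0.46. Pdcd1, which encodes PD-1, measured 100.3, 133, 78.5 and 108 CPM and Icos, a co-stimulatory receptor, 344, 325, 373 and 347 CPM. Cd28 gave 19, 25, 0 and 15 UMIs and was at 643 to 762 CPM in alpha-beta T cells.

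Klrk1, which encodes the activating receptor NKG2D, measured 209, 142, 216 and 126 CPM. It was higher in both Tom+ libraries, with log2 ratios of 0.56 (0.11 to 1.04) and 0.78 (0.35 to 1.22), and was not called. Of the type 1 genes compared in both pairs, it was the 1 that stood higher in Tom+ in both. Among genes of that list under the 50 CPM limit in a pair, Cxcr3, Ccl3 and Gzmb were also higher in both. Cxcr3 had log2 ratios of 0.20 (-0.56 to 1.03) and 1.51 (0.60 to 2.51), and Ccl3 0.99 (-0.69 to 3.35) and 1.91 (0.26 to 3.95). Most others under the limit, among them Klrd1 and Cd27, were lower in both. Of the 6 type 1 genes compared in each pair, 3 were called lower in the CD45- pair (Ccl5, Ccl4, Gzma). In the CD45+ pair 4 were called lower (Ccl5, Ccl4, Nkg7, Ly6c2), and the medians were -0.83 and -1.53. Over all genes compared, 2.13 and 2.14% were called lower in the 2 pairs.

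These type 1 genes came from few cells. Ccl5, a chemokine of cytotoxic cells, measured 112, 360, 258 and 934 CPM, while 13.5, 26.2, 13.4 and 23.9% of cells held a UMI. Gzma, a granzyme, gave 0, 34, 71 and 85 UMIs in 0, 1, 1 and 3 cells. Without the type 1 cells, which numbered 4, 4, 3 and 8, Ccl4 stood at log2 ratios of 0.83 and 0.52 and Ly6c2 at 3.40 in the CD45+ pair, each in the opposite direction. Ccl5, Gzma and Nkg7 belong to the split, so leaving out these cells removes much of their signal by construction.

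**Figure D4:**
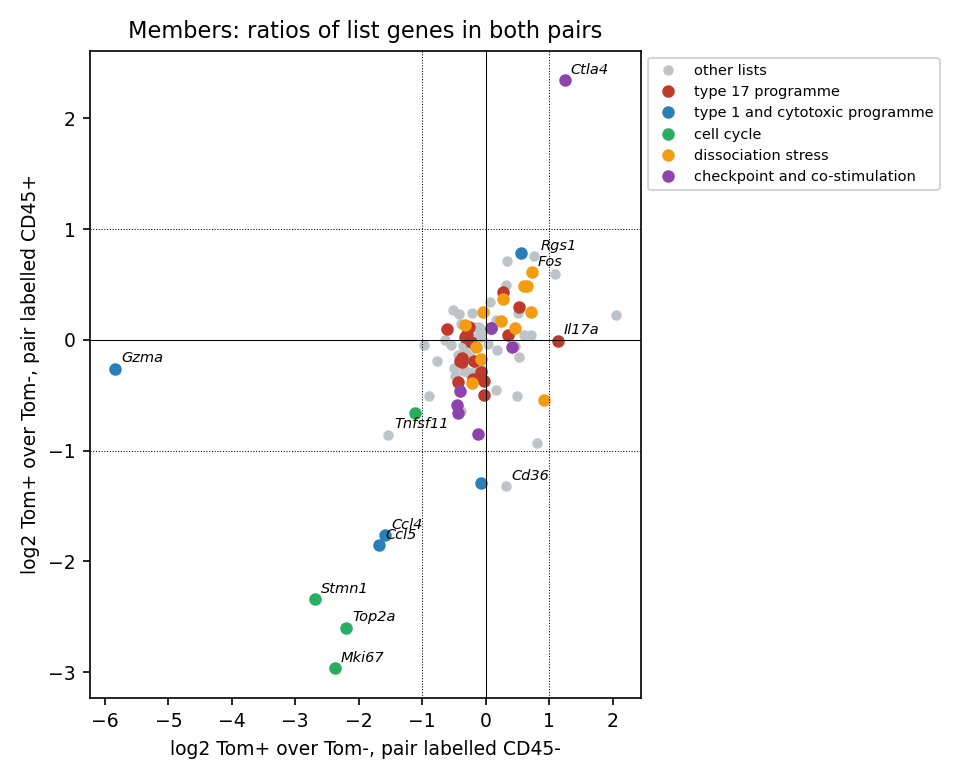
Each point is a gene of the lists that was compared in both pairs, placed by its log2 ratio of Tom+ over Tom- in gamma-delta T cells of the CD45- pair (x axis) and of the CD45+ pair (y axis), coloured by list, with dotted lines at 2-fold. Cell cycle genes lie at the lower left, with Ccl4 and Ccl5 of the type 1 list, while Klrk1 of that list lies at 0.56 and 0.78. Gzma of the same list lies at -5.83, where its 0 UMIs in CD45- Tom+ enter as 3 counts, and at -0.26. Ctla4 lies at the upper right at 1.24 and 2.34, and most type 17 genes lie near 0.

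Cell cycle genes were lower in both Tom+ libraries. Of 4 compared in the CD45- pair, all 4 were called lower (Mki67, Top2a, Pcna, Stmn1), where 2.13% of all genes compared were. Of 5 in the CD45+ pair, 4 were called lower (Mki67, Top2a, Stmn1, Ube2c), where 2.14% of all genes were. The medians were -2.29 and -2.60. Mki67, a marker of dividing cells, measured 19.4, 101, 27.9 and 218 CPM. Top2a, which untangles replicated DNA, measured 28.2, 129, 36.6 and 222 CPM, and Stmn1, a regulator of microtubules, 30.7, 199, 47.1 and 239 CPM. Both Tom- libraries stood above both Tom+ libraries for each of these.

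The share of cells with a UMI did not follow the levels. Mki67 was seen in 11.6, 7.14, 15.9 and 10.4% of cells, and after thinning in 3.86, 2.38, 7.32 and 7.46%, so neither share was clearly lower in Tom+. The levels were carried by a small number of cells, and in CD45- Tom- 1 cell held 87.5% of the Mki67 UMIs. Cells with 10 or more UMIs summed over the 12 cell cycle genes numbered 1 of 207 (0.483%, 0.0122 to 2.66), 2 of 42 (4.76%, 0.582 to 16.2), 2 of 82 (2.44%, 0.297 to 8.53) and 6 of 67 (8.96%, 3.36 to 18.5). These cells held 14.1, 81.0, 25.5 and 89.7% of the UMIs of the list, and every 1 of them was of type 17.

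The share was lower in Tom+ than in Tom- in both pairs, but the intervals overlapped in each. Among alpha-beta T cells, 5 of 112 (4.46%, 1.47 to 10.1), 3 of 167 (1.80%, 0.372 to 5.16), 1 of 43 (2.33%, 0.0589 to 12.3) and 4 of 260 (1.54%, 0.421 to 3.89) reached 10 cell cycle UMIs, with intervals that also overlapped. The limit of 10 UMIs was chosen after the values were seen. At 5 UMIs the counts were 8, 4, 4 and 6, and at 20 UMIs 1, 2, 0 and 5. Without the cells at 10 or more, Mki67 was higher in Tom+, with log2 ratios of 2.43 and 2.83. Mki67 is 1 of the 12 genes of the sum, so leaving out these cells removes much of its signal by construction. Few of its UMIs were then left in the Tom- libraries, and no conclusion is drawn from these ratios.

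**Figure D5:**
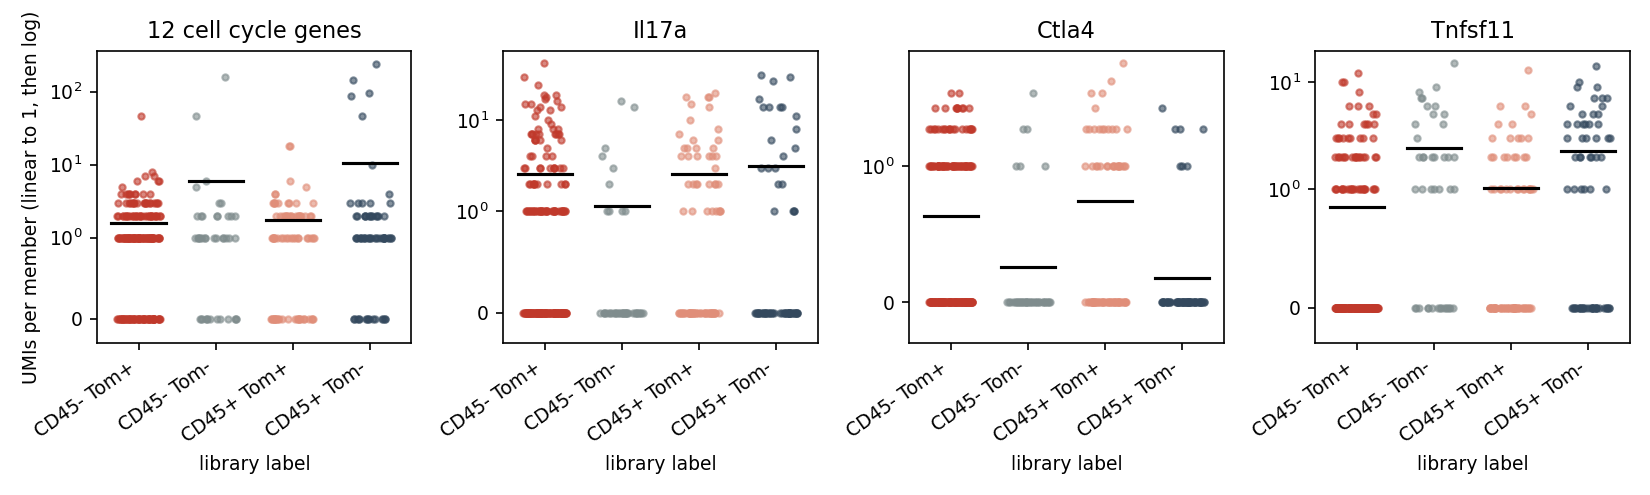
UMIs per gamma-delta T cell, linear to 1 and then on a log scale, for the sum of 12 cell cycle genes and for Il17a, Ctla4 and Tnfsf11, with 1 point per cell and a black line at the mean of each library. In the left panel most cells lie at a few UMIs, and the 6 cells of CD45+ Tom- at 10 or more UMIs hold 89.7% of that library's total.

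Inhibitors of cyclin-dependent kinases are the proteins that p16 belongs to. Cdkn1a, which encodes p21, measured 127, 139, 171 and 204 CPM, with log2 ratios of -0.13 (-0.60 to 0.38) and -0.26 (-0.66 to 0.14). It was higher in gamma-delta than in alpha-beta T cells, which had 41.6 to 78.8 CPM. Cdkn1b, which encodes p27, measured 117, 145, 129 and 157 CPM, and was 2-fold apart in neither pair. Cdkn2c, which encodes p18, measured 35.1, 56.8, 8.72 and 71.6 CPM. It was under the 50 CPM limit in both pairs, with log2 ratios of -0.69 (-1.48 to 0.16) and -3.04 (-4.73 to -1.70), so CD45+ Tom+ was the low library. Hmgb1, a chromatin protein, measured 642, 836, 642 and 1002 CPM, with log2 ratios of -0.38 and -0.64. Lmnb1, another gene of the same list, had log2 ratios of 0.49 and -0.51. The part of the few cells high in cell cycle genes in the Hmgb1 and Cdkn2c ratios was not tested. Of the 5 and 6 genes of this list compared, 0 were called, with medians of -0.13 and -0.39.

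Immediate early and other stress genes, which also respond to tissue digestion, leaned in part toward Tom+. Of those compared, Fos, Jun, Fosb, Atf3, Zfp36, Jund and Nfkbia were higher in Tom+ in both pairs, and Junb, Ier2 and Hspa8 were lower. Egr1, Dusp1 and Hsp90aa1 went opposite ways in the pairs. Fos measured 1538, 931, 1348 and 883 CPM, with log2 ratios of 0.72 and 0.61, and Jun 1361, 900, 1269 and 906 CPM, with 0.60 and 0.49. In alpha-beta T cells Fos measured 1634, 792, 1058 and 884 CPM, so it leaned the same way there. Junb and Ier2 stood at -0.15 and -0.07 in the CD45- pair and at -0.07 and -0.17 in the CD45+ pair. Of 13 genes of the stress list, 0 were called in either pair, with medians of 0.27 and 0.17. Among interferon response genes 3 were compared and 0 called, and Isg15 gave 11, 0, 0 and 3 UMIs.

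Lipid handling genes gave few calls. Apoe, which encodes apolipoprotein E and is abundant in macrophages, was called higher in Tom+ in the CD45- pair, at 512, 240, 331 and 219.9 CPM, beside the macrophage marker sums given above. Cd36, a fatty acid transporter, measured 94.1, 75.8, 59.3 and 148 CPM and Fabp4, a fatty acid carrier of fat and endothelial cells, 40.1, 53.7, 50.6 and 955 CPM, and both were called lower in the CD45+ pair. In CD45+ Tom- 1 cell held 95.2% of the Fabp4 UMIs, and after thinning both genes leaned the other way. Plin2, a lipid droplet protein, measured 149, 133, 120.3 and 106 CPM. Of 5 and 7 genes compared, the medians were 0.17 and 0.07.

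Among genes averaging 100 CPM or more over the 4 libraries, with immunoglobulin, mitochondrial, ribosomal protein and predicted genes and tdTomato left out, 9 were 2-fold or more higher in Tom+ in both pairs. Of these, 7 were compared in both, and Cma1 and Mcpt4 were under 50 CPM in the CD45+ pair. Besides Itgb1 they included Mzb1, which the rule used, Txndc5 and Ssr4, genes of protein secretion that plasma cells express highly, and Slpi, a protease inhibitor. Txndc5 measured 288, 56.8, 206 and 24.4 CPM in gamma-delta T cells and 289, 47.5, 197 and 56.9 CPM in alpha-beta T cells, and Ssr4 493, 234, 488 and 241 CPM against 434, 155, 381 and 188 CPM. Both thus moved in the same way as the immunoglobulin share, in both kinds of T cell. Slpi measured 232, 44.2, 159 and 22.7 CPM, and with looser limits on genes and mitochondrial UMIs its CD45+ ratio turned to -1.70.

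The other 4 genes were Cxcl2, Cma1, Mcpt4 and Cd74. Cxcl2, a neutrophil-attracting chemokine, measured 137, 59.97, 208 and 82.0 CPM, with log2 ratios of 1.19 (0.51 to 1.95) and 1.34 (0.84 to 1.86), and in alpha-beta T cells 134, 235, 217 and 168 CPM. Cma1 and Mcpt4 are mast cell proteases, and in CD45- Tom+ 1 cell held 747 of 919 and 558 of 631 of their UMIs. That cell also held 84.0% of the UMIs of the 4 mast cell markers there. Cd74, which belongs to antigen-presenting cells, gave 697, 35, 140 and 52 UMIs. Its log2 ratios were 1.98 (1.49 to 2.52) and 1.43 (0.96 to 1.92). In CD45- Tom+ 1 cell held 224 of its 697 UMIs, and the other cells held the larger part.

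By the same rule 8 genes were 2-fold or more lower in both pairs, and 7 of them were compared in both, since Hist1h2ap was under 50 CPM in the CD45- pair. Of these 8, Hist1h2ap, Stmn1, Top2a, Tuba1b, Tubb5 and Smc4 are genes of DNA packaging, microtubules and chromosomes that dividing cells use, and Ccl5 belonged to the split. The remaining gene was Dcn, a matrix protein of stromal cells, at 48.9, 167, 45.3 and 155 CPM, where the stromal marker sum moved the same way.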

How the data were processed

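Gamma-delta T cells of 4 libraries, 1 per group, were examined. The authors digested gonadal fat, sorted the cells and made 10x Genomics Chromium 3′ libraries, and processed reads with Cell Ranger 3.0.2 (per the submitters' processing notes) against mm10. They deposited unnormalised UMI counts per gene and barcode, of 31054 features, of which 30934 were found in GENCODE vM21, the source of coordinates.

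From these counts, cells between 1000 and 7000 genes and below 8% mitochondrial UMIs were kept, and the rule above was applied. The libraries held 139397501, 110410319, 64083756 and 136459745 UMIs in 7815, 11255, 3429 and 11068 barcodes, and gamma-delta T cells had medians of 7179 to 7782 UMIs. Counts were summed per library and scaled to 1000000 (CPM), where 3 counts, the limit a count of 0 allows, equal 1.88, 9.47, 5.23 and 5.24 CPM. Intervals are exact (binomial, Poisson, or conditional for a ratio of Poisson counts, 95%). Shares were repeated after thinning to 2000 UMIs. Doublets were kept, with Scrublet (scanpy 1.11.5) as an alternative. No test was made, since each group was 1 library, and the study's Wilcoxon test over cells was not used. In Poisson counts simulated from the genes of each pair, 96.2 and 95.8% of intervals held the true ratio. The intervals assume such counts, so this checks the computation only. It does not cover the uneven spread of transcripts between cells. Python packages were numpy 2.4.6, scipy 1.17.1 and pandas 2.3.3.

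Cells, gene lists and subset rules were chosen with earlier results of these data known. Named were list genes and up to 15 genes by ratio over alpha-beta T cells or between subsets. Also named were up to 10 genes per direction, 2-fold or more apart in both pairs, with a mean of 100 CPM or more over the 4 libraries. These last could lie under the 50 CPM limit in a pair. Sequences and motif shares came from RefSeq windows of GRCm38.p6. Some genes of the lists and of the subset rule entered the sums and counts and are not reported here by name.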

Additional observations from a re-analysis of the deposited data

Results flagged for a closer look

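Of 97 list genes looked at, 2 had log2 ratios of Tom+ over Tom- of opposite sign in the 2 library pairs, with intervals of counting error on either side of 0. Klf2, a transcription factor of lymphocyte recirculation, measured 331, 189, 157 and 298 CPM, and its log2 ratio was 0.81 in the pair labelled CD45- and -0.93 in the pair labelled CD45+, a difference of 1.73. Egr1, an immediate early gene, measured 281, 148, 148 and 216 CPM, with 0.92 and -0.55, a difference of 1.47. In alpha-beta T cells Egr1 measured 330.4, 164, 181 and 298 CPM, the same order of the libraries within each pair. The 4 endothelial markers summed to 175, 41.0, 68.0 and 192 CPM in gamma-delta T cells, again the same order within each pair. With 1 library per group these differences were not tested, nor was the part of endothelial transcripts in them.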

How the results depend on the processing

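No paired analysis was possible because each group was 1 library and the results come from no test. Of 150 recomputed shares and counts of genes, 122 stayed within counting error or 1.5 times and 28 moved. Of the ratios of single genes, 595 stayed, 77 moved and 22 reversed. Alternatives on dividing cells, type 1 cells, single cells, macrophage and stromal limits, barcodes in any list and totals without immunoglobulin genes were chosen after seeing the data.

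The share of gamma-delta T cells in CD45- Tom+ was 3.50% with cells of over 500 genes and under 20% mitochondrial UMIs, 4.09% after thinning every cell first and 3.09% without cells over the macrophage or stromal limits, where CD45+ Tom+ was at 3.28%. Without any Trac, Trbc1 or Trbc2 UMI it was 0.265, 0.0991, 0.505 and 0% in the 4 libraries, and type 17 cells were 90.9, 50.0 and 100% of the 11, 4 and 10 cells left. With the plasma cell limit added, 0, 0.966, 0.0505 and 1.12% of the 4 libraries remained, so that Tom+ was below Tom-, with 0% type 17 in the 1 cell left in CD45+ Tom+. Ratios could not be computed under these 2 settings. After thinning, type 17 cells were 85.0% of CD45+ Tom+.

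Genes 2-fold higher or lower in Tom+ numbered 164 and 221 (pair labelled CD45-) and 170 and 290 (CD45+) after thinning, and 205 and 274, and 135 and 291, with a 20 CPM minimum. In the CD45- pair 23 were lower without each gene's highest cell. In the CD45+ pair 99 were lower with the looser cell limits, and 57, 50 and 56 were higher without macrophage or stromal cells, without dividing cells and with equal weight per cell.

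Reversed log2 ratios in the CD45- pair were Ccl4 at 0.025 after thinning and 0.83 without type 1 cells, and Mki67 and Top2a at 0.59 and 0.29 without Scrublet calls, 2.43 and 1.10 without dividing cells, and 0.53 and 0.031 without the highest cell. In the CD45+ pair they were Cd74 at -0.011 and Slpi at -1.70 with the looser cell limits, Cd36 and Fabp4 at 0.54 and 1.28 after thinning and 0.13 and 0.11 without Scrublet calls, Fabp4 at 0.053 without the highest cell, Mki67, Stmn1, Top2a and Ube2c at 2.83, 1.57, 2.34 and 0.57 without dividing cells, and Ccl4, Ccl5 and Ly6c2 at 0.52, 0.20 and 3.40 without type 1 cells. The cell cycle genes named here were in the sum that chose the dividing cells, so their values without those cells follow in part from that choice. Apart from the settings that change which cells enter, the cause was not tested. Over all alternatives computed, Ctla4 stayed between 0.70 and 1.85 and between 2.04 and 2.67 in the 2 pairs, and Itgb1 between 0.36 and 1.39 and between 1.03 and 1.94. Depth limits Cdkn2a, Il22 and Lif, and the 42 cells of CD45- Tom- limit every value there.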
